A study of Mus musculus with 5 samples.

Results

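The promoter class of the CCT3-2 list held 3012 of its 18650 peaks, or 16.2% (95% Wilson interval 15.6 to 16.7%), and its members were all rows whose deposited annotation begins with the word Promoter. The list comes from an eCLIP experiment. There, proteins are crosslinked to the RNA they touch, an antibody pulls one of them down, and the trimmed RNA is sequenced beside an input that skips the pull-down. The cells were GC-2spd(ts), an immortalised mouse line labelled as spermatocyte cells. The 5 samples were 2 CCT3 immunoprecipitations (CCT3-2 and CCT3), 1 PABPC1 immunoprecipitation and 1 input for each protein, with no genotype or treatment in the labels. CCT3-2 and CCT3 carry the same library name, so they were not shown to be independent, and only 1 CCT3 input is labelled.

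CCT3 is a subunit of the TRiC/CCT chaperonin, a ring of related proteins that folds actin, tubulin and other newly made proteins. PABPC1 is the cytoplasmic protein that coats the poly(A) tails of mRNAs. A promoter is a stretch of DNA around a transcription start, whereas an eCLIP peak marks RNA, so a promoter label on such a peak says only how near it lies to an annotated start.

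The authors' log2 fold over input and −log10 p-value are given per peak and were used only to describe or rank peaks within the list. One list stands for each sample, so no difference between samples could be tested. Intervals cover counting error only, and they treat as separate the neighbouring peaks of 1 gene, which are not independent. No 2 peaks of a strand overlapped, but 561 promoter-class peaks abutted the next peak. The read depth of the libraries is unknown from the lists. None of the 12 spermatocyte markers had a peak in the CCT3-2 list, nor did any of the 6 spermatid or 8 fibroblast markers, and 1 of 6 Leydig cell and 1 of 6 Sertoli cell markers did, but not in the promoter class. A peak list shows bound RNA and not expression, so the cell label was not checked by it.

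The highest fold of the class lay on a microRNA, and the sequences under its peaks, chosen for display after their values were seen, show what RNA a promoter label can cover. MicroRNAs are cut from a hairpin precursor, and the mature strand pairs with its targets through its seed, bases 2 to 8. Peaks on the strand of the miRNA covered every base of 4 mature miRNAs. Their sequences are those of RefSeq (GRCm38.p6), 5′ to 3′, with the seed in capitals.
mmu-miR-423-5p: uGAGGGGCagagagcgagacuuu
mmu-miR-29a-3p: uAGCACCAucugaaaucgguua
mmu-miR-23a-3p: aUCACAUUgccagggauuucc
mmu-miR-27a-3p: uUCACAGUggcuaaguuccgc
The seeds of the 4 were all different, and miR-23a-3p (chr8:84208563-84208583) and miR-27a-3p (chr8:84208727-84208747) came from neighbouring hairpins on the plus strand. miR-423-5p lies at chr11:77078122-77078144 and miR-29a-3p at chr6:31062673-31062694, both on the minus strand. Their hairpins are printed with the bases inside the peaks in capitals. The peaks lay on the arm of the named mature miRNA, as the choice of these 4 required, and none lay on the other arm.
Mir423 hairpin, chr11:77078064-77078172, minus strand: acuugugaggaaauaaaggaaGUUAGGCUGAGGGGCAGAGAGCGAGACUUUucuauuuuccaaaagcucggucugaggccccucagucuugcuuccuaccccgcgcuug
Mir29a hairpin, chr6:31062660-31062747, minus strand: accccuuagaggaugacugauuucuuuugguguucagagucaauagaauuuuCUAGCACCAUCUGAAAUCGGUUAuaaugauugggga
Mir23a hairpin, chr8:84208518-84208592, plus strand: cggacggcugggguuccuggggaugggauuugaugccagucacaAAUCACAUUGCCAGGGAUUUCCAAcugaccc
Mir27a hairpin, chr8:84208672-84208758, plus strand: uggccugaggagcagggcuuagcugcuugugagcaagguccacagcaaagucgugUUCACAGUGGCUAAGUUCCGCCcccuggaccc

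Mir423 had 3 adjoining peaks, with log2 folds of 8.94, 8.35 and 8.35. The first of them was 2 bases wide and had the highest fold of any CCT3-2 peak. Mir29a had 2 adjoining peaks at 4.25 each, Mir23a 1 at 4.23, and Mir27a 2 at 3.65 and 3.35. All 8 peaks also overlapped a peak of the PABPC1 immunoprecipitation. Only 2 of them, both in Mir423, overlapped a CCT3 peak, and none in Mir29a, Mir23a or Mir27a did. The −log10 p was 3.14 for both Mir29a peaks, 3.78 for Mir23a, and 6.17 and 5.31 for Mir27a. For Mir423 it was 265 or more. In all, 17 promoter-class peaks overlapped a hairpin and 0 other CCT3-2 peaks did. A hairpin is far shorter than the distance window of the class, so any peak on one falls near its listed start. Of the 17 peaks, 12 lay on the strand of 7 hairpins, and 5 lay opposite to the hairpins Mir1896, Mir1905 and Mir6244. The same-strand peaks on the hairpins Mir10a, Mir324 and Mir5099 touched no listed mature miRNA. A miRNA gene was named as the nearest gene for 68 promoter-class peaks in 18 genes, so 51 of those peaks lay beside the hairpin and not on it. The 7 peaks listed for Mir671, for example, reached a log2 fold of 5.04, and the RefSeq gene Chpf2 was on their strand.

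The label followed distance alone. Each of the 3012 peaks lay within 1000 bases of its listed transcript start, and none of the other 15638 CCT3-2 peaks did. The PABPC1 list used the label in the same way, for 1858 of 14092 peaks (13.2%). The CCT3 list used it differently: 101 of 10916 peaks (0.925%) carried it, and those were exactly the peaks at distance 0. With the 1000-base window applied to the CCT3 list, 1705 of its peaks (15.6%, 15.0 to 16.3%) would have been in the class. The share was thus 16.2% in CCT3-2 against 15.6% in CCT3 once both lists were cut alike. Of those 1705 CCT3 peaks, 963 (56.5%) were deposited as exon, 250 (14.7%) as 5′ UTR, 223 (13.1%) as intron and 167 (9.79%) as 3′ UTR.

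By strand, 2782 of the 3012 peaks (92.4%, 91.4 to 93.3%) lay on the strand of their listed gene and 230 (7.64%, 6.74 to 8.64%) lay opposite to it, beside 10.6% of all CCT3-2 peaks. On the gene strand, 1773 peaks were downstream of the start, 138 lay on it and 871 were upstream. The sense peaks of the first kilobase, at distances of 0 to 1000, were thus 1911, or 63.4% of the class (61.7 to 65.1%). The opposite-strand peaks were split nearly evenly, with 105 downstream, 12 on the start and 113 upstream.

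Along the gene strand the counts were highest beside the start and higher downstream of it than upstream. Each distance is to the start listed for that peak, and 135 genes of the class had 2 or more listed starts. A peak is listed with a near start, so this choice bears on the fall of counts with distance on both strands. What the choice alone would give was not tested. The 500 bases before the start held 581 peaks and the 500 after it 1041. Between 501 and 1000 bases there were 290 upstream and 732 downstream. No step marked the edge of the class: the last 100 bases inside the downstream edge held 132 peaks and the first 100 bases outside it held 141. In the next kilobase, from 1001 to 2000 bases, 1297 gene-strand peaks lay downstream and 496 upstream, none of which carried the label. Opposite-strand peaks were also most frequent beside the start, with 62 in the 500 bases before it and 66 in the 500 after it, against 51 and 39 in the next 500.

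**Figure D1:**
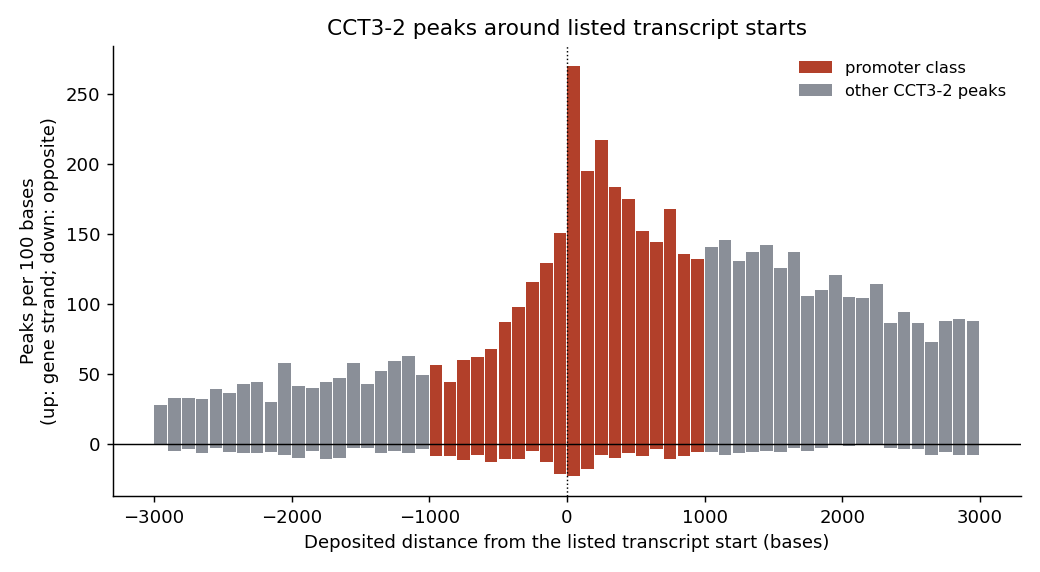
Number of CCT3-2 peaks per 100 bases (vertical axis) by deposited distance from the listed transcript start in bases (horizontal axis); gene-strand peaks point up, opposite-strand peaks down, promoter-class peaks are red and other peaks grey, and the 150 peaks at distance 0 are not drawn. The counts are highest just past the start and show no step at the downstream edge of the class, where 132 peaks lie in the last 100 bases inside and 141 in the first 100 outside. The start is the one listed for each peak, and that choice bears on the fall of counts with distance.

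For most peaks the listed start was not near the 5′ end of the gene. It lay within 100 bases of the RefSeq 5′ end for 767 of 3010 peaks (25.5%) whose gene has a RefSeq position, and within 1000 bases for 1149 (38.2%). It lay over 1000 bases inside the gene for 1802 (59.9%), and its median position was 4102 bases inside. For the other CCT3-2 peaks that median was 3782 bases, so inner listed starts were not particular to the class. The upstream peaks stood out here. Among gene-strand peaks, the start was within 1000 bases of the 5′ end for 864 of 1773 downstream peaks (48.7%) and for 101 of 869 upstream peaks (11.6%), a difference of 37.1 points (Newcombe 95% interval 33.8 to 40.2). Of those upstream peaks, 751 (86.4%) had a start over 1000 bases inside the gene. Among all 871 upstream peaks of the gene strand, 787 (90.4%) overlapped the RefSeq span of the very gene they were listed upstream of.

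**Figure D2:**
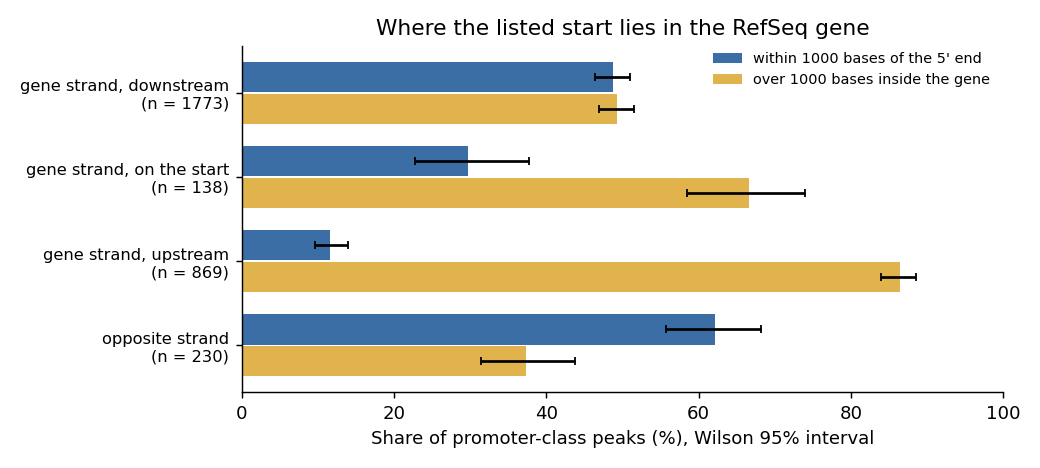
Share of promoter-class peaks (horizontal axis, percent, with Wilson 95% intervals as bars) whose listed start lies within 1000 bases of the RefSeq 5′ end (blue) or over 1000 bases inside the gene (yellow), by strand and side of the start. Gene-strand upstream peaks stand apart, at 11.6% and 86.4%.

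The class overlapped its listed genes more often than the rest of the list did. At least 1 base lay in the RefSeq span of the listed gene for 2783 of 3012 promoter-class peaks (92.4%) and 12568 of 15638 other peaks (80.4%). The difference had a Newcombe interval of 10.9 to 13.1 points. A peak within 1000 bases of a start is close to its gene by definition, so the distance rule bears on this share. Only 32 promoter-class peaks (1.06%) lay in no RefSeq gene. A window from 250 bases before to 50 after each RefSeq start, inner starts among them, was touched by 122 promoter-class peaks (4.05%). Of these, 85 were on the strand of the window, and 64 peaks lay wholly inside one.

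Peaks wholly inside a RefSeq start window show which letters lay under the label beside an annotated start. Of the genes named by rule, 3 are shown, Nedd4, Vcan and Mtf2, and at least the windows of Nedd4 and Vcan belong to inner starts of those genes. The sequences follow the gene strand in RefSeq GRCm38.p6, with the bases under the peak in capitals and 30 bases on each side in lower case.
Nedd4, chr9:72693094-72693213, plus strand: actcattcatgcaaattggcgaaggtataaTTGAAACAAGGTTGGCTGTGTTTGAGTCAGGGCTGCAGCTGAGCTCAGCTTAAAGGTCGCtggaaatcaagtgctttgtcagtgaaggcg
Vcan, chr13:89742508-89742595, minus strand: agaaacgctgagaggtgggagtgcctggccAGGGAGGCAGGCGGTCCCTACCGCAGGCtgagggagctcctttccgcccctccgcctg
Mtf2, chr5:108077988-108078187, plus strand: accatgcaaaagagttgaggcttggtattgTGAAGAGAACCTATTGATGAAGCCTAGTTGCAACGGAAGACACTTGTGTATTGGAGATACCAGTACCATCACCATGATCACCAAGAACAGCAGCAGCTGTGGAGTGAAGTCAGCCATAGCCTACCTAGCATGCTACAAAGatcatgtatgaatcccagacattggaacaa
The Nedd4 peak had a log2 fold of 5.93 and the Mtf2 peak one of 3.63, both on the gene strand. The Vcan peak, at 4.57, lay on the strand opposite to the one printed. The CCT3 list named the same places an exon of its annotation for Nedd4 and an intron for Vcan and Mtf2. Over the 64 peaks, GC content had a median of 61.1% (quartiles 52.4 and 72.8%), against 57.1% in the rest of the same windows and 52.7% over all RefSeq start windows.

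Most promoter-class peaks were met by a CCT3 peak that had another class. At least 1 base overlapped a CCT3 peak for 2001 of 3012 promoter-class peaks (66.4%) and for 9982 of 15638 other peaks (63.8%), beside 64.3% of the whole list. The difference of 2.60 points (0.739 to 4.43) turned to −2.14 points (−4.07 to −0.197) when the overlap had to cover 50% of both peaks, so no order of the sets is given. The overlapping CCT3 peak was called exon for 1164 of the 2001 (58.2%, 56.0 to 60.3%), 5′ UTR for 284 (14.2%), intron for 242 (12.1%), 3′ UTR for 191 (9.55%), and promoter for 119 (5.95%). In 1 case it was distal intergenic. Several CCT3-2 peaks can meet the same CCT3 peak, so the 2001 are not as many separate matches. Of them, 1995 met a CCT3 peak within 1000 bases of its own listed start, and the CCT3 list had 1705 such peaks. Exon and UTR classes together took 1639 (81.9%, 80.2 to 83.5%).

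Set against the other CCT3-2 peaks that overlapped a CCT3 peak, the promoter class fell more often on 5′ UTR and exon and less often on intron and 3′ UTR. The 5′ UTR share was 14.2% in the promoter class and 1.26% in the others, a difference of 12.9 points (11.5 to 14.5). A 5′ UTR begins at a transcript start, so the distance rule of the class bears on this share too. Exon differed by 9.82 points (7.44 to 12.2), 3′ UTR by −10.2 points (−11.7 to −8.67) and intron by −18.2 points (−19.8 to −16.5). With only the highest promoter-class peak of each gene, the exon share was 51.2%, against 48.3% over all the other peaks. The matching share with 1 other peak per gene was not computed. For the other peaks both lists gave the same class in 9903 of 9982 cases (99.2%), so the classes of overlapping peaks differed almost only where the promoter label was used.

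The class carried depended on the side of the start. Of 1212 downstream gene-strand peaks with an overlap, 771 (63.6%) met an exon, 239 (19.7%) a 5′ UTR and 96 (7.92%) an intron. Of 567 upstream gene-strand peaks, 316 (55.7%) met an exon, 33 (5.82%) a 5′ UTR and 123 (21.7%) an intron. Downstream minus upstream, 5′ UTR differed by 13.9 points (10.8 to 16.8) and intron by −13.8 points (−17.6 to −10.2). As a 5′ UTR runs downstream from its start, the split by side bears on the 5′ UTR difference. The exons themselves were of different kinds. Among downstream peaks on an exon, 243 of 771 met the first of several exons, 239 the only exon, 198 an internal exon (25.7%) and 91 the last. Among upstream peaks on an exon, 236 of 316 (74.7%) met an internal exon, and 27 met a first one. Of the 90 gene-strand peaks on the start with an overlap, 72 (80.0%) met a peak that CCT3 also called promoter. The CCT3 list gave that label only at distance 0, and all 72 met a peak at distance 0, so this share restates the label rule.

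**Figure D3:**
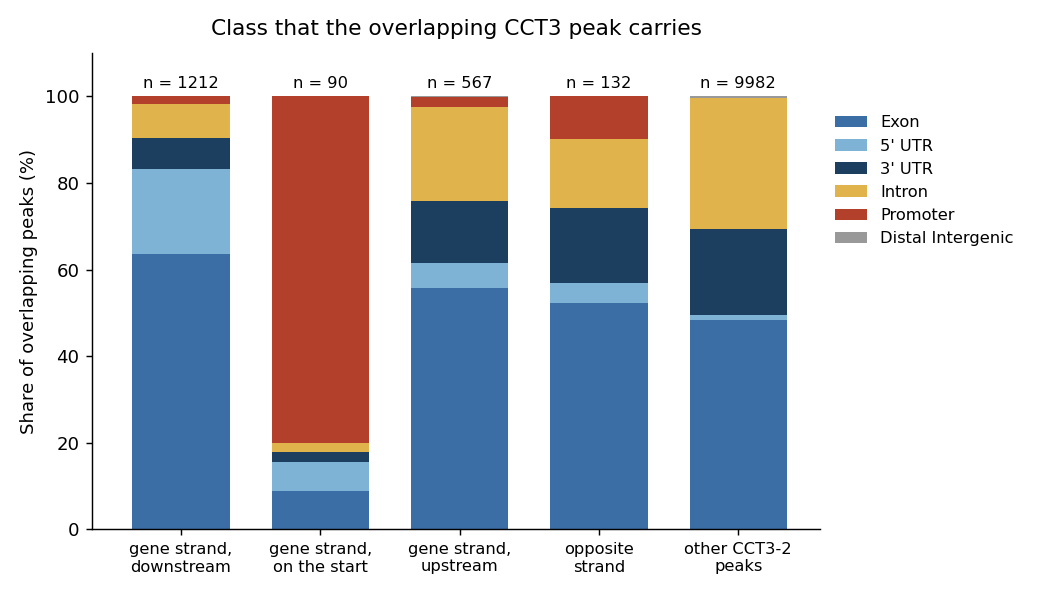
Share of overlapping peaks (vertical axis, percent) by the class that the CCT3 list gave the overlapping peak, for promoter-class CCT3-2 peaks by strand and side of the start and for other CCT3-2 peaks; n is the number of peaks with an overlap. Promoter is the main class only on the start itself (80.0%), as the CCT3 list gave that label at distance 0 alone. Exon is the main class in the other 4 bars, between 48.3% and 63.6%.

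Opposite-strand peaks mostly lay in a second gene. Of the 230, 160 (69.6%) lay in another RefSeq gene whose strand matched the peak, 32 (13.9%) in a gene whose strand the tables used here do not give, and 38 (16.5%) in neither. Of these 230 peaks 132 (57.4%) overlapped a CCT3 peak, against 67.2% of gene-strand peaks, a difference of −9.79 points (−16.5 to −3.33). Their median −log10 p was also lower, 5.84 against 9.07 for gene-strand peaks, while the median log2 fold was 3.80 against 3.74. Whether peak strength bears on the overlap difference was not tested. Where the overlapping CCT3 peak was called exon or intron with a gene ID, that ID was the listed gene in 25 of 69 opposite-strand cases (36.2%) and in 1166 of 1233 gene-strand cases (94.6%). Upstream peaks made up 49.1% of opposite-strand peaks and 31.3% of gene-strand peaks, a difference of 17.8 points (11.2 to 24.5).

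How antisense the class looked depended on which gene gave the strand. By listed gene, the opposite share was 7.64% in the promoter class and 11.1% in other peaks, a difference of −3.48 points (−4.51 to −2.37). By any RefSeq gene of known strand that held the peak, 73 of 2965 promoter-class peaks (2.46%) and 171 of 15098 other peaks (1.13%) had none on their strand, a difference of 1.33 points (0.798 to 1.97). The order of the sets was reversed. This second measure was chosen after the data had been seen.

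The opposite-strand peaks fell in 71 listed genes, and 3 genes had promoter-class peaks on both strands. Btbd6, which encodes a BTB-domain protein, had 15 of them, with log2 folds of 3.29 to 6.39, all in the span of Brf1, a subunit of a polymerase III initiation factor whose strand the tables do not give. Vcan, the gene of the matrix proteoglycan versican, had 13, at 2.85 to 5.55, and all 13 lay in Gm4117 on the strand of that gene. The 12 listed for 9530052E02Rik reached 5.14 and lay in Irs2, which encodes an adaptor of the insulin receptor. The 11 listed for Mir1905 reached 5.42 and lay in Mex3a, which encodes an RNA-binding protein. The 10 listed for Ints2, an Integrator subunit, reached 5.16 and lay in Brip1os. All 7 opposite peaks listed for Igf2r, at 2.87 to 4.80, lay in Airn, the long noncoding RNA that runs antisense to Igf2r and silences its paternal copy. Airn itself was the listed gene of another 7 promoter-class peaks, with folds of 3.10 to 4.92.

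The authors' 2 measures of a peak ranked the sets differently. The log2 fold of promoter-class peaks over input had a median of 3.75 (quartiles 3.27 and 4.38, range 2.52 to 8.94), against 3.85 (3.35 and 4.43, 2.37 to 7.80) for other CCT3-2 peaks. The −log10 p had a median of 8.82 (quartiles 5.18 and 15.3) in the promoter class and 7.44 (4.35 and 13.0) in the others. Median width was 56 bases in the promoter class and 57 bases in the others. The threshold that all CCT3 peaks meet, with both authors' values at 3 or more, was passed by 2557 promoter-class peaks (84.9%) and by 83.5% of the others, beside 83.7% of the whole list. The fold also varied little with distance: on the gene strand its median was 3.69 in the 500 bases before the start, 3.73 in the 500 after it, 3.85 from 501 to 1000 and 3.88 from 1001 to 1500. Peaks that overlapped a CCT3 peak had a median of 3.91, and those that did not had 3.45.

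The deposited −log10 p stops at 400, a value reached by 108 promoter-class peaks (3.59%) and 148 others (0.946%), a difference of 2.64 points (2.01 to 3.38). Of the 108, 54 were in Neat1, 38 in Malat1, 13 in Hnrnpl, and 1 each in Junb, Rbm15 and Zbed6. Without Neat1 and Malat1, a choice made after seeing the data, 0.548% of promoter-class peaks and 0.347% of the others reached it, and the difference of 0.201 points (−0.0348 to 0.550) included 0.

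The class named 803 of the 2855 genes in the list (28.1%). It had 1 peak in 310 of them and 10 or more in 66, and these 66 genes held 1000 of the 3012 peaks. For 324 genes, every CCT3-2 peak was in the class. Protein-coding genes took 2682 peaks (739 genes), long noncoding RNAs 227 (32 genes), miRNAs 68 and transcribed pseudogenes 29.

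Neat1 and Malat1, both long noncoding RNAs, had more promoter-class peaks than any other gene. Neat1, the RNA that scaffolds the paraspeckles of the nucleus, had 54 promoter-class peaks of 69, all at the −log10 p limit, with log2 folds of up to 5.40. They ran from 952 to 1954 bases past the RefSeq 5′ end around 1 listed start 1043 bases inside the gene, and 48 of them overlapped CCT3 peaks, all called exon. The CCT3 list had 12 peaks for Neat1, so several of the 48 met the same CCT3 peak. Malat1, an abundant RNA of nuclear speckles, had 38 of 117, also all at the limit, at folds of 2.90 to 4.14. Its 79 peaks of other classes followed directly, from 1066 to 1680 bases past the 5′ end, with folds of 2.80 to 4.55. The label thus ended within a run of peaks, and the highest Malat1 fold was outside it.

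Tug1, a long noncoding RNA needed for male fertility in mice, had 21 promoter-class peaks of 75, all on the gene strand. They were spread over 4 listed starts, at 2, 908, 1278 and 1682 bases from the RefSeq 5′ end, and 13 of the 21 belonged to the innermost. The highest peak, chr11:3646925-3647009 on the minus strand, stood at 7.24 on the log2 scale, with 82.4 as its −log10 p, and lay 123 bases past that innermost start. The 3 peaks of the outermost start had the values 3.88, 3.65 and 3.59 on that scale, and all but 2 of the others were higher than these. Of the 21 peaks, 19 overlapped a CCT3 peak and all 19 of those were called exon. The 54 other Tug1 peaks began 3328 bases past the 5′ end and reached 7.01.

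Hnrnpl, which encodes a splicing regulator, had the highest folds among the genes with many peaks. Its 32 promoter-class peaks had log2 folds of 5.03 to 7.94 with a median of 6.07, and its 21 other peaks 4.95 to 7.80 with a median of 6.50. They gathered around 2 listed starts, 6560 and 9288 bases inside the gene, and the other peaks filled the gap between the windows. The highest peak, chr7:28816885-28816897, was listed 937 bases upstream of the inner start although it lay 8345 bases past the RefSeq 5′ end. Of the 30 that overlapped a CCT3 peak, 19 were called exon and 11 intron.

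**Figure D4:**
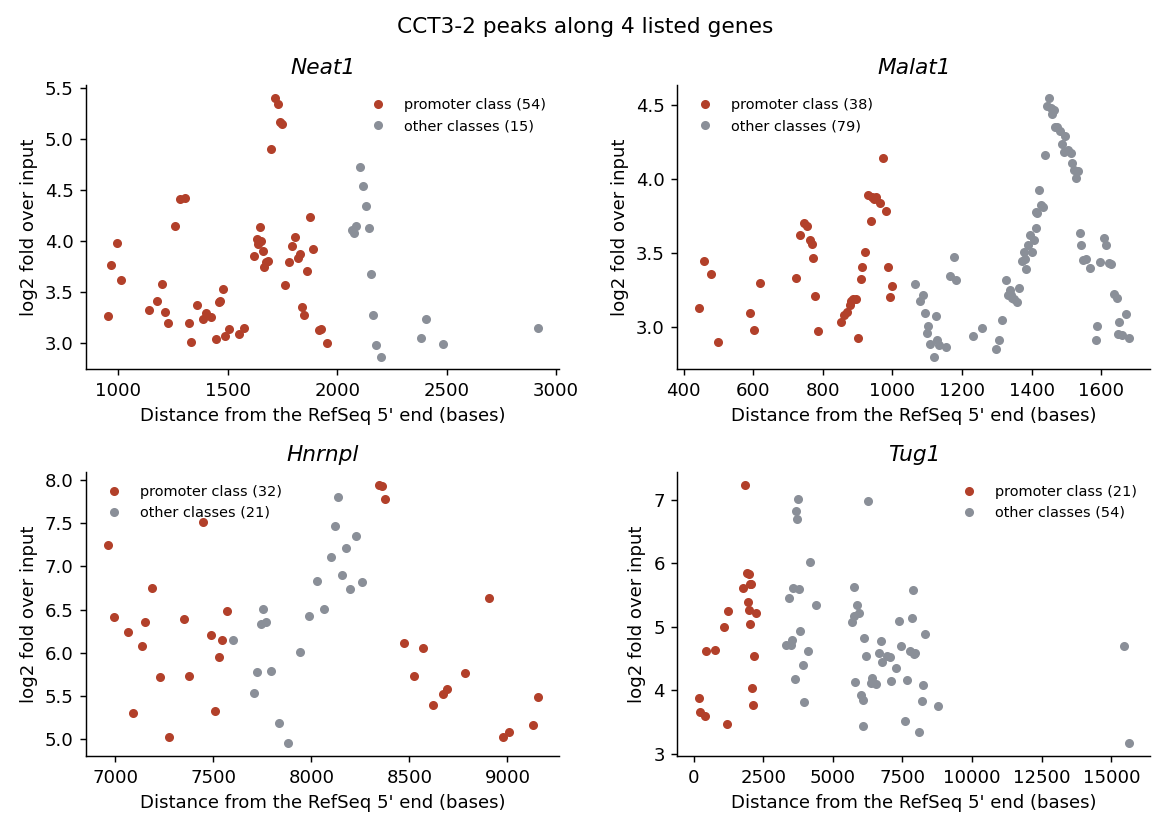
Log2 fold over input (vertical axis) of every CCT3-2 peak listed for Neat1, Malat1, Hnrnpl and Tug1 by distance of its midpoint from the RefSeq 5′ end in bases (horizontal axis); red points are promoter-class peaks and grey points peaks of other classes, with their numbers in the legends. In Hnrnpl the 21 other peaks lie between 2 groups of promoter-class peaks, and in Malat1 the 79 other peaks carry on where the 38 promoter-class peaks stop.

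In several protein-coding genes the labelled peaks lay far from the 5′ end, and some of them met CCT3 peaks called 3′ UTR. Tnrc6a, whose protein carries out silencing by miRNAs, had 26 peaks, all in the class, at folds of 2.76 to 5.21. They lay 138563 to 140929 bases past the 5′ end, and the 23 that overlapped a CCT3 peak met a 3′ UTR. Ythdc1, a nuclear reader of N6-methyladenosine, had 22 of 29 in the class, at 3.61 to 6.89, and 20 met a 3′ UTR. In both genes the RefSeq span ran on past these peaks, so the 3′ UTR is that of the annotation used in the CCT3 list. Wnk1, a kinase of ion transport, had 23 of 23, at 2.98 to 5.98, of which 20 met an exon. Cpne1, a calcium-dependent membrane-binding protein, had 20 of 20, at 3.29 to 6.68, and 16 met an exon and 2 a peak called promoter. All 20 also lay in Rbm12 on the same strand, so they cannot be assigned to Cpne1 alone. Nedd4, a ubiquitin ligase, had 18 of 37 around a start 31108 bases inside the gene, and its peaks in the class had folds of 4.31 to 7.69, beside 2.76 to 6.83 for its others.

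With each gene ranked by its highest sense peak in the first kilobase, the first 8 were Mir423 (8.94), Hnrnpl (7.51), Tug1 (7.24), Nedd4 (7.18), Purg (7.09), Cpne1 (6.68), Eid3 (6.50) and Dync2h1 (6.37). For Eid3, a subunit of the SMC5/6 complex, the listed start was the RefSeq 5′ end, but the peak also lay in Txnrd1 on the same strand, as the Cpne1 peak did in Rbm12 and the Mir423 peaks in Nsrp1. The Purg peak lay 951 bases past a start that is 706 bases inside the gene. The peak listed for Dync2h1, the gene of a dynein of cilia, lay on a start at −6140 bases from the RefSeq 5′ end, outside the RefSeq span of the gene, and had no CCT3 overlap. Other high peaks with no CCT3 overlap were in Bcorl1 (5.73), Zbtb9 (5.64) and Pcdhga11 (5.57).

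Gene lists, chosen with earlier results known, are read against the 28.1% of all CCT3-2 genes that had a promoter-class peak. Zinc finger transcription factors had the most genes in the class, 46 of 241 (19.1%), led by Zfp451 (5.73), Zfp638 (5.72), Zbtb9 and Zfp462 (5.14). Among chromatin modifiers 16 of 35 genes with a peak had one in the class, including the histone methyltransferases Setd2 (18 peaks, up to 4.58) and Ash1l (6 peaks, up to 4.30). All 6 peaks of the demethylase gene Kdm1a (up to 5.50) and both of Kdm2b (up to 4.27) lay opposite to the listed gene. For the RNA-binding and splicing proteins of the nucleus it was 7 of 11, with Rbm15 (12 peaks, up to 5.97), Son (9, up to 4.65) and Srrm2 (13, up to 3.75) beside Hnrnpl. For immediate-early genes, which respond to stimuli within minutes, it was 7 of 12. Junb had 12 peaks between 53 and 985 bases past the 5′ end, at folds of 3.49 to 4.50, and Ier2 (4.41), Klf6 (4.19) and Ier5 (3.78) had 3, 1 and 9. Long noncoding RNAs counted 4 of 8, Polycomb members 2 of 6 (Pcgf5 at 4.66 and Mtf2 at 3.91), translation factors 3 of 6 (Eef1d at 4.41, Eif3c at 3.64 on the opposite strand, Eif3a at 2.93), miRNA genes 18 of 56 and cell cycle genes 5 of 6. The last were Plk1 (4.07, both peaks opposite), Cenpf (3.67), Cenpe (3.43), Cdkn2c (3.29) and Myc (2.54). With so few genes a list, these shares are descriptions.

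Other lists had no gene in the class. Of 85 cytoplasmic ribosomal protein genes 2 had any CCT3-2 peak, of 31 poly(A) and deadenylation factors 6, of the 8 TRiC/CCT subunits 1, and of 27 TRiC partners 1, and none of these peaks was within 1000 bases of its start. Neither the 62 histone genes nor the 18 small nucleolar RNA host genes had a CCT3-2 peak, and neither did Cct3 or Pabpc1. The share of all genes that had a CCT3-2 peak was not computed, so these counts have no background beside them. So few genes of these lists had a peak that none in the class, beside 28.1% of all CCT3-2 genes, is a description only.

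Overlap with PABPC1 was rare. It was found for 44 of 3012 promoter-class peaks (1.46%), in 27 genes, and for 128 of 15638 others (0.819%), beside 0.922% of the whole list. The difference was 0.642 points (0.241 to 1.15), and 0.544 points (0.156 to 1.04) without the 3 Mir423 peaks. The peaks on the Mir29a (2), Mir23a (1) and Mir27a (2) hairpins were left in, and by distance such peaks could fall only in the promoter class. A difference without them was not computed. All 44 shared the strand of the PABPC1 peak. After Mir423 the highest were in Tmod1 (5.77), an actin-capping protein, Abi3 (5.06), Arid4b (4.95) and Grm4 (4.62). Of these, only the Tmod1 peaks overlapped a CCT3 peak. Bcr had 4 short neighbouring peaks, of 3 to 9 bases, with folds of 3.92 to 3.96. The 4 listed for the small nucleolar RNA gene Snord82, at 2.83 to 2.96, lay upstream of it in Ncl, the gene of nucleolin. Hsp90aa1, the gene of an HSP90 chaperone, had 1, at 3.45.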

How the data were processed

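Each immunoprecipitation is represented by 1 deposited peak list, annotated with a gene, a transcript, a class and a distance. The submitters' processing notes name mm10 and bcl2fastq 2.20, while for the aligner, peak caller and annotation tool nothing is given in the sources used here. The deposited −log10 p-value stops at 400. The deposited log2 fold is taken as immunoprecipitation over input, and the authors' columns for both are unnamed in the CCT3-2 and PABPC1 lists and were read by their ranges. The deposited distance from the start is a signed score in bases, negative upstream. The CCT3 list gives no strand, so overlaps with it ignore strand.

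Overlaps needed 1 base (bedtools 2.31.1), and of several overlapping CCT3 peaks the one with the longest overlap gave the class. A peak was likewise counted as lying in a RefSeq gene when it shared at least 1 base with the span of that gene. Shares have Wilson 95% intervals and differences Newcombe intervals (Python 3.11.15, numpy 2.4.6, pandas 2.3.3, scipy 1.17.1; figures with matplotlib 3.10.9). Tested on simulated data, 200 of 200 overlaps planted on CCT3 peaks were found. No p-value was computed. RefSeq positions, gene types and sequences are of GRCm38.p6, the assembly of mm10, and gene strands were known only for genes in the peak lists or the table of start windows.

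Members, lists and the rule for named genes were chosen with earlier results of these data known. The rule takes Tug1, Cct3 and Pabpc1, the 8 genes with most peaks and, each gene ranked by its highest peak, the 8 highest genes for sense peaks of the first kilobase, 8 for opposite peaks, 5 for peaks with no CCT3 overlap and 5 for peaks with a PABPC1 overlap, and up to 4 members of each list. Genes outside it, such as Igf2r, Airn, Mir671, Bcr and Snord82, were named after their values were seen. Alternatives were stricter thresholds, merging, the top peak of each gene, 50% reciprocal overlap, peak midpoints, protein-coding genes, isolated starts and strand.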

Additional observations from a re-analysis of the deposited data

How the results depend on the processing

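For 10 results, 44 values were recomputed, of which 23 were inside the interval of the reported one (for a count, within 1.5 times) and 21 outside. The promoter share of the list was 15.5% at a log2 fold of 4 with a −log10 p of 5, and 15.2% with peaks within 10 bases merged. The gene-strand share was 93.6% at that stricter threshold, 91.2% for the highest peak of each gene, 94.7% for protein-coding genes and 97.5% by any RefSeq gene holding the peak, and the opposite share was 5.29% and 2.46% for the last 2. The first-kilobase share was 61.5% merged, 60.5% by peak midpoint and 61.4% for the 2384 peaks with no other RefSeq start within 3000 bases. Overlap with CCT3 was 74.2% at values of 3, 85.9% at the stricter threshold, 62.2% merged, 58.4% for the highest peak of each gene and 43.9% at 50% reciprocal overlap, and for other peaks it was 71.9% at values of 3 and 46.0% at 50% reciprocal overlap. The exon share of carried classes was 55.5% merged and 51.2% for the highest peak of each gene. Overlap with PABPC1 was 1.06% at 50% reciprocal overlap. The cause of these shifts was not tested. Promoter minus other overlap with CCT3 was also negative for the highest peak of each gene in each set, at −1.37 points (−5.30 to 2.50). Leaving out Neat1 and Malat1, leaving out Mir423 and the strand of any RefSeq gene were chosen after seeing the data. No paired analysis was possible because each immunoprecipitation has 1 list and no test across samples was made. With 1 list each, the spread between replicates is unknown, and library depth could not be read from the lists.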
